A study of Mus musculus with 6 samples.

Results

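FGF ligands and their receptors were examined in the Braf-mutant mouse melanoma line 4434 after 20 days of partial reprogramming. The members were 7 ligand genes (Fgf1, Fgf2, Fgf5, Fgf7, Fgf10, Fgf18 and Fgf21) and 3 receptor genes (Fgfr1, Fgfr2 and Fgfr3), read on every probe set that the platform annotation gives to 1 of these symbols alone. This gave 19 probe sets, 11 for ligands and 8 for receptors, out of 45037 tested. A probe set is a group of short probes that together report 1 transcript region, and its value here is a log2 RMA value, so a difference of 1 is a change of 2-fold.

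All cells of both groups carried a doxycycline-inducible lentiviral vector for Oct4, Sox2, Klf4 and blasticidin resistance, together with a vector for the doxycycline-dependent transactivator and mCherry. The + dox cells received doxycycline, and the methods describe blasticidin selection after induction. The − dox cells held both vectors and were kept without doxycycline. Each group had 3 arrays. No source states that these came from separate cultures, so p-values refer to the spread among these 6 samples alone, part or all of which may be technical. As doxycycline, selection and the 3 factors came together, their parts cannot be told apart.

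Arrays + dox 1 and − dox 1 stood apart from their groups. On the first principal component of all probe sets (57.4% of the variance) + dox 1 had a score of 15.7 against 58.6 and 72.7 for the other + dox arrays, and on the second (21.6%) − dox 1 had 59.8 against −29.8 and −34.0. Calls that rest on either are given with and without it. Most probe sets without a call, among them those of the markers Cd68 and Tek, are given with all arrays only. Array medians lay between 5.33 and 5.37, and no array pair had over 952 of 45037 values in common.

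Fibroblast growth factors are secreted proteins that bind heparan sulfate and receptor tyrosine kinases at the cell surface. A bound receptor passes its signal through adaptor proteins to the Ras-MAPK cascade, and that cascade switches on its own inhibitors, among them Sprouty proteins, the receptor antagonist Sef (gene Il17rd) and the phosphatase Dusp6. In skin, Fgf7 and Fgf10 are classically made by mesenchymal cells and act on epithelial forms of Fgfr2, while Fgf2 is a growth factor for melanocytes in culture.

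The member with the largest change was Fgf7. The 250 bases upstream of its start site are shown as its proximal promoter, the stretch just before the start of transcription. They lie at chr2:126034408-126034657 on the plus strand of mouse build GRCm38.p6, were taken from RefSeq, and are printed 5′ to 3′ with CpG dinucleotides in capitals.
Fgf7 upstream region: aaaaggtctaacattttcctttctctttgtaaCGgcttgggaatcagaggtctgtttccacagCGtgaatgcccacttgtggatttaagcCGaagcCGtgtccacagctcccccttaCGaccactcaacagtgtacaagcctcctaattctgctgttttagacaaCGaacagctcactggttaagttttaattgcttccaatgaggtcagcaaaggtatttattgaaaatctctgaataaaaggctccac
It held 6 CpG, equal to the median of 32851 mouse upstream regions of this length, and a GC content of 43.6% against a median of 52.4%. Upstream regions of 8 of the 10 members were searched, 9 regions in all, and their CpG counts ran from 2 (Fgfr2) to 37 (Fgf18). Fgf1 and Fgfr1 were not among these 8, and a chromosome filter had been applied to the member entries beforehand. The letters of 5 motifs were searched on both strands: ATGCAAAT (the octamer bound by Oct4), ACAATG (a SOX core), CCACACCC (a KLF box), TGANTCA (AP-1) and CCGGAAGT (ETS). None of the 9 regions held any of them, and the share of all upstream regions with a match was 1.6%, 10.7%, 3.2%, 6.75% and 2.88% in the same order. This says only that these letters are not in these windows.

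In the comparison of + dox with − dox cells, which asks what partial reprogramming changed, Fgf7 and Fgfr1 were lower in + dox cells on every one of their probe sets. Of the 19 member probe sets 5 fell, 2 of Fgf7 and 3 of Fgfr1, and 0 rose (limma, adjusted over all probe sets). Among all probe sets, the share called lower was 0.884%, the share called higher 1.64% and the share called at all 2.53%. The other 14 member probe sets, of 8 genes, did not pass, with adjusted p values from 0.382 to 0.899. Groups did not overlap for 6 of the 19 probe sets, the 5 called ones and 1 of Fgfr2 that was higher, as against 23.4% of all probe sets. The median change of the 19 probe sets was −0.10, and that of all probe sets was 0.

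**Figure D1:**
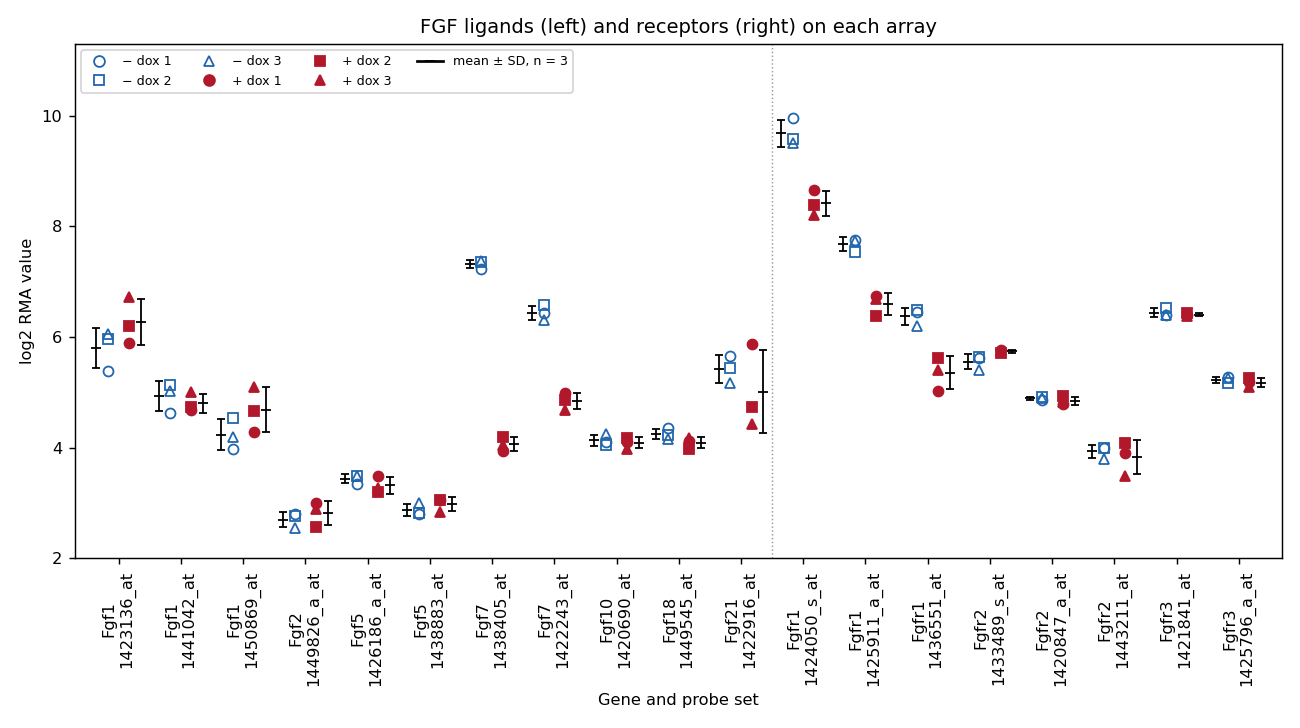
The 19 member probe sets (horizontal axis; ligands left, receptors right of the dotted line) with their log2 RMA values (vertical axis). Each open blue symbol is a − dox array, each filled red symbol a + dox array, and black bars give mean ± SD (n = 3); the groups separate widely for both Fgf7 probe sets and all 3 Fgfr1 probe sets, and Fgf21 spreads from 4.43 to 5.87 in + dox arrays.

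Among the ligands, Fgf7 encodes keratinocyte growth factor, a ligand of epithelial cells. On probe set 1438405_at it stood at 7.23, 7.35 and 7.37 in − dox arrays 1, 2 and 3 and at 3.94, 4.19 and 4.05 in + dox arrays 1, 2 and 3. The groups lay more than 3 log2 units apart, with every array close to its group mean. The mean fell from 7.32 ± 0.08 to 4.06 ± 0.13 (SD, n = 3), a change of −3.26 (SE 0.10, 95% confidence interval −3.51 to −3.01, limma adjusted p = 0.000104). This made the level 9.56-fold higher in − dox cells. The + dox values lay just above the lower quartile of all probe sets on those arrays (3.87 to 3.89), near the low end of the scale, so the size of the fall is approximate.

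The other Fgf7 probe set, 1422243_at, moved the same way by a smaller amount. It gave 6.43, 6.57 and 6.31 in − dox arrays and 4.98, 4.86 and 4.68 in + dox arrays. All 3 + dox values were thus below all 3 − dox values, as on the first probe set. The change was −1.60 (SE 0.12, interval −1.89 to −1.31, limma adjusted p = 0.00359), which is 3.02-fold. Within each array, the first probe set read 0.80, 0.78 and 1.06 above the second in − dox cells and 1.04, 0.67 and 0.63 below it in + dox cells. The changes of both probe sets therefore differed by −1.66, and this was the most extreme of the possible splits of 3 against 3 arrays (exact permutation p = 0.1, two-sided, the smallest this design allows; 0.4 after adjustment over 4 pairs of probe sets). Which transcript region each probe set covers was not analysed here.

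Both Fgf7 calls held whichever array was left out. The change on 1438405_at then ran from −3.32 to −3.20, with limma adjusted p values from 0.000384 to 0.00246. On 1422243_at it ran from −1.67 to −1.52, with adjusted p values from 0.00377 to 0.0293. With the mean of both probe sets as 1 value per gene the change was −2.43 (limma adjusted p = 8.61e-05).

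Fgf10, the closest relative of Fgf7 and like it a ligand of epithelial Fgfr2, showed no such fall. Its 1 probe set read 4.10, 4.05 and 4.24 in − dox arrays and 4.10, 4.18 and 3.98 in + dox arrays. The groups overlapped, and the change was −0.04 (interval −0.29 to 0.20, limma adjusted p = 0.883). All 6 values sit low on the scale, where a fall could be hard to see.

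Fgf1, acidic FGF, which binds all FGF receptors, had 3 probe sets that did not move together. Probe set 1423136_at read 5.38, 5.96 and 6.05 in − dox arrays and 5.89, 6.19 and 6.72 in + dox arrays, a change of 0.47 (interval −0.16 to 1.10, limma adjusted p = 0.417). Probe set 1450869_at gave 3.97, 4.53 and 4.19 against 4.29, 4.66 and 5.10, a change of 0.45 (interval −0.11 to 1.02, adjusted p = 0.382 by limma). On both, + dox 3 was the highest array and − dox 1 the lowest, and the groups overlapped. The third, 1441042_at, had −0.13 (interval −0.52 to 0.26). The upper bounds leave room for a rise of up to 2.14-fold on 1423136_at, so these arrays do not show whether Fgf1 changed.

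Fgf2, basic FGF, and Fgf5, known for ending the growth phase of the hair cycle, were dim, below the lower quartile of each of the 6 arrays. Fgf2 read 2.79, 2.76 and 2.54 in − dox and 3.0, 2.57 and 2.88 in + dox arrays, with a change of 0.12 (interval −0.22 to 0.46). The 2 probe sets of Fgf5 had changes of −0.12 (interval −0.39 to 0.15) and 0.11 (interval −0.16 to 0.37). At this level RMA values carry little signal over background, so a low transcript level cannot be told apart from none, and a difference between groups was not detectable.

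Fgf18, a ligand with roles in bone and cartilage, read 4.35, 4.22 and 4.16 in − dox arrays and 4.11, 3.98 and 4.17 in + dox arrays. The change was −0.16 (interval −0.40 to 0.09, limma adjusted p = 0.490), and − dox 3 lay just under + dox 3. Fgf21, a hormone-like FGF of metabolism and stress that needs the co-receptor β-Klotho, was the most variable member. It stood at 5.66, 5.44 and 5.16 in − dox arrays and at 5.87, 4.74 and 4.43 in + dox arrays. Array + dox 1 was thus the highest of all 6, and + dox 2 and 3 were the lowest. The change over all arrays was −0.41 (interval −1.29 to 0.47, limma adjusted p = 0.639). It was −0.84 without + dox 1 (limma adjusted p = 0.0723) and −0.72 without both arrays numbered 1, where it passed (limma adjusted p = 0.0482). That last fit was chosen after seeing the data and leaves out + dox 1, the array that ran against the fall. It called 11.4% of all probe sets, against 2.53% with all arrays.

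**Figure D2:**
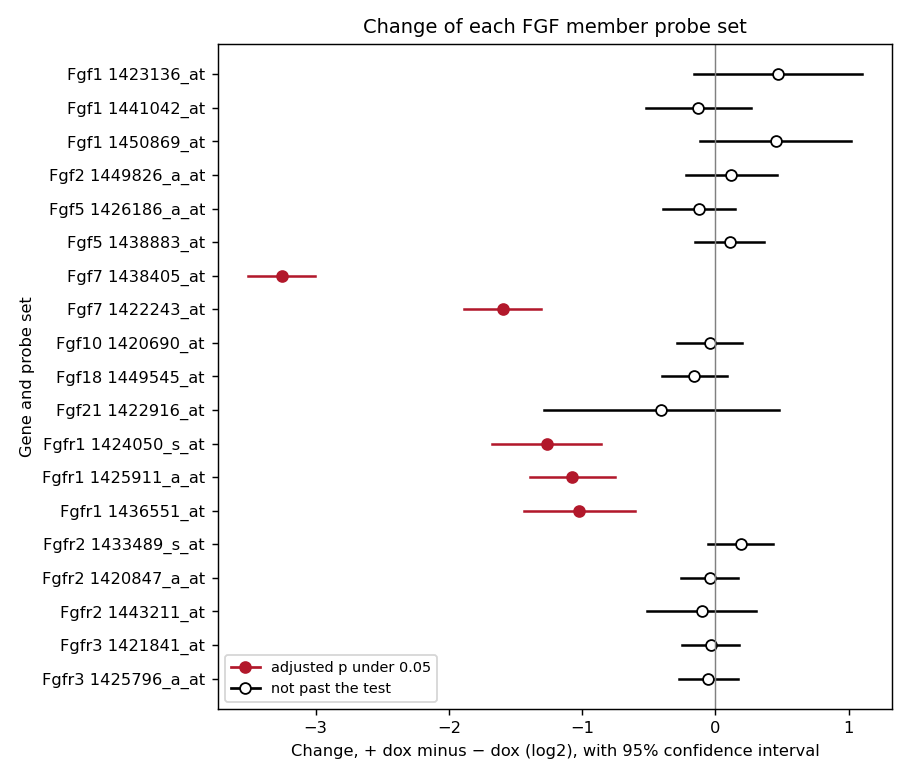
Change between + dox and − dox arrays in log2 units (horizontal axis) of each member probe set (vertical axis), with lines for the 95% confidence interval of the limma fit. Filled red points passed an adjusted p of 0.05; these are both Fgf7 probe sets (−3.26 and −1.60) and the 3 Fgfr1 probe sets (−1.27 to −1.02), and the intervals of the other 14 include 0.

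Among the receptors, Fgfr1, the main FGF receptor of mesenchymal and neural crest-derived cells, fell by about the same amount on 3 probe sets. Probe set 1424050_s_at read 9.96, 9.58 and 9.51 in − dox arrays and 8.66, 8.38 and 8.21 in + dox arrays. Probe set 1425911_a_at read 7.76, 7.53 and 7.74 against 6.75, 6.38 and 6.68. Probe set 1436551_at read 6.45, 6.48 and 6.19 against 5.03, 5.62 and 5.41. On each of them every + dox array was below every − dox array.

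The changes were −1.27 (SE 0.17, interval −1.67 to −0.86, limma adjusted p = 0.0224), −1.07 (SE 0.13, interval −1.39 to −0.76, adjusted p = 0.0192) and −1.02 (SE 0.17, interval −1.43 to −0.61, adjusted p = 0.0401) in that order. In linear terms Fgfr1 was 2.41-fold, 2.10-fold and 2.03-fold higher in − dox cells. Differences between probe sets in the size of the change were −0.19, −0.25 and −0.05, with exact permutation p values of 0.4, 0.5 and 0.9 (two-sided; 0.667, 0.667 and 0.9 adjusted over 4 pairs). All 3 stood well above the low end of the scale in both groups. As this is bulk RNA, fewer cells with the transcript and less transcript per cell cannot be told apart, for Fgfr1 as for Fgf7.

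The Fgfr1 calls depended on which arrays were in the fit, while the direction did not. All 3 passed without + dox 1 (limma adjusted p = 0.0141, 0.0151 and 0.0322). Leaving out − dox 2, − dox 3, + dox 2 or + dox 3 put the adjusted p of each of the 3 probe sets above 0.05, and leaving out − dox 1 also did so for 1436551_at. For 1424050_s_at the limma adjusted p was then 0.0818, 0.0899, 0.107 and 0.0957, with changes between −1.35 and −1.16. The highest adjusted p was 0.100 for 1425911_a_at (without − dox 3) and 0.143 for 1436551_at (without + dox 3). Without both arrays numbered 1 all 3 passed (limma adjusted p = 0.00384, 0.0112 and 0.0260). This fit was chosen after seeing the data, and it called 11.4% of all probe sets. With 1 value per gene, the mean of its 3 probe sets, Fgfr1 fell by 1.12 on the log2 scale (limma adjusted p = 0.00379).

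**Figure D3:**
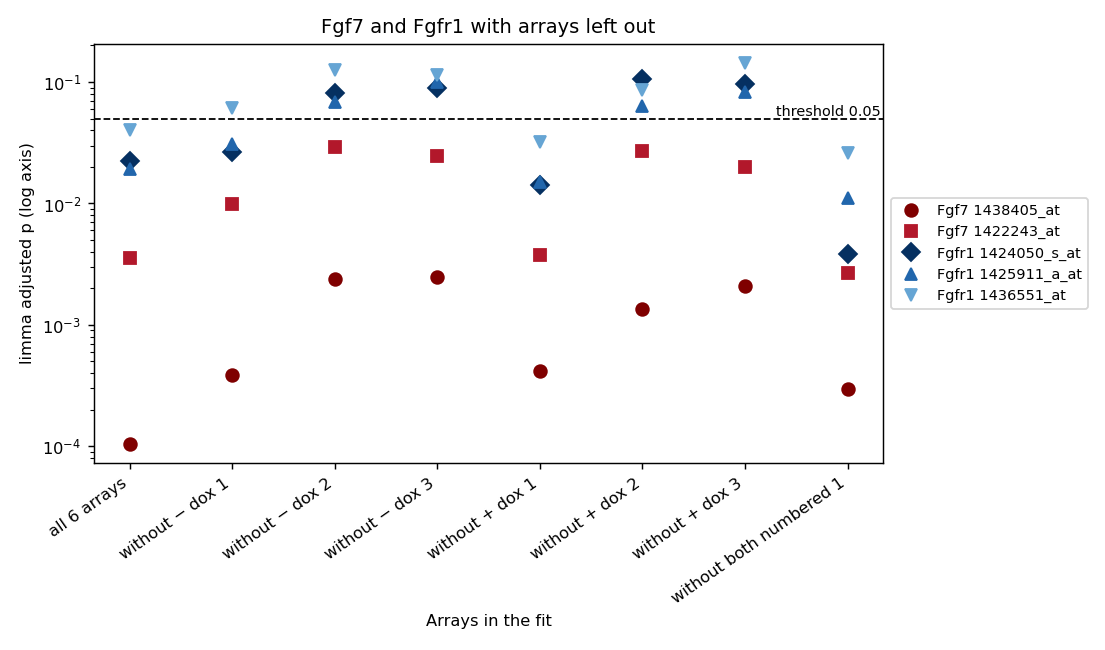
Limma adjusted p on a log axis (vertical) of the 5 called member probe sets for each set of arrays in the fit (horizontal axis), with a dashed line at the threshold of 0.05. Both Fgf7 probe sets (red) stay under the line in every fit, and the Fgfr1 probe sets (blue) lie above it without − dox 2, − dox 3, + dox 2 or + dox 3.

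Fgfr2 and Fgfr3, the receptors best known from epithelia and from cartilage, showed no call. For Fgfr2, probe set 1433489_s_at read 5.62, 5.64 and 5.40 in − dox arrays and 5.77, 5.71 and 5.75 in + dox arrays. These groups did not overlap, but the change was small at 0.19 (interval −0.05 to 0.43, limma adjusted p = 0.394). Its other probe sets had −0.04 (interval −0.26 to 0.17) and −0.10 (interval −0.51 to 0.30). Whether the probes separate the epithelial and mesenchymal splice forms was not analysed here. Fgfr3 read 6.39, 6.53 and 6.40 against 6.40, 6.44 and 6.38 on 1421841_at, a change of −0.03 (interval −0.25 to 0.18), and its second probe set had −0.05 (interval −0.27 to 0.17). Both Fgfr3 intervals thus leave out a fall as large as that of Fgfr1.

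By root mean square difference over the 6 arrays, after each probe set was centred on its own mean, the profiles most like that of Fgf7 (1438405_at) were those of Nptx1 (0.22 log2 units), Masp1 (0.33), Edil3 (0.41), Foxred2 (0.49) and Dzip1 (0.57). Nptx1 encodes a neuronal pentraxin, Masp1 a protease of the lectin complement pathway and Edil3 a matrix protein. Their changes lay between −3.43 and −2.33. The profile of Fgfr1 (1424050_s_at) had nearer neighbours, Tlcd3b and Intu (0.06 and 0.07), Slc27a1 (0.07), Pstpip2 (0.08) and Gpnmb (0.10 on 1439345_at). These are likenesses over 6 arrays in 2 groups, given as a description.

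The rest of the pathway was read on 178 probe sets of 77 genes, out of 81 listed. Of these probe sets 3 rose (Fgf16, Fgfbp3 and Phlda1) and 3 fell (Spry1, Il17rd and Dusp6), each on 1 probe set of a different gene. Before adjustment 40 had a p under 0.05, of which 29 were lower and 11 higher in + dox cells, while 18.5% of all probe sets had such a p. The called share, 3.37%, was near the 2.53% of the whole table, so the count by itself sets the pathway apart little.

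**Figure D4:**
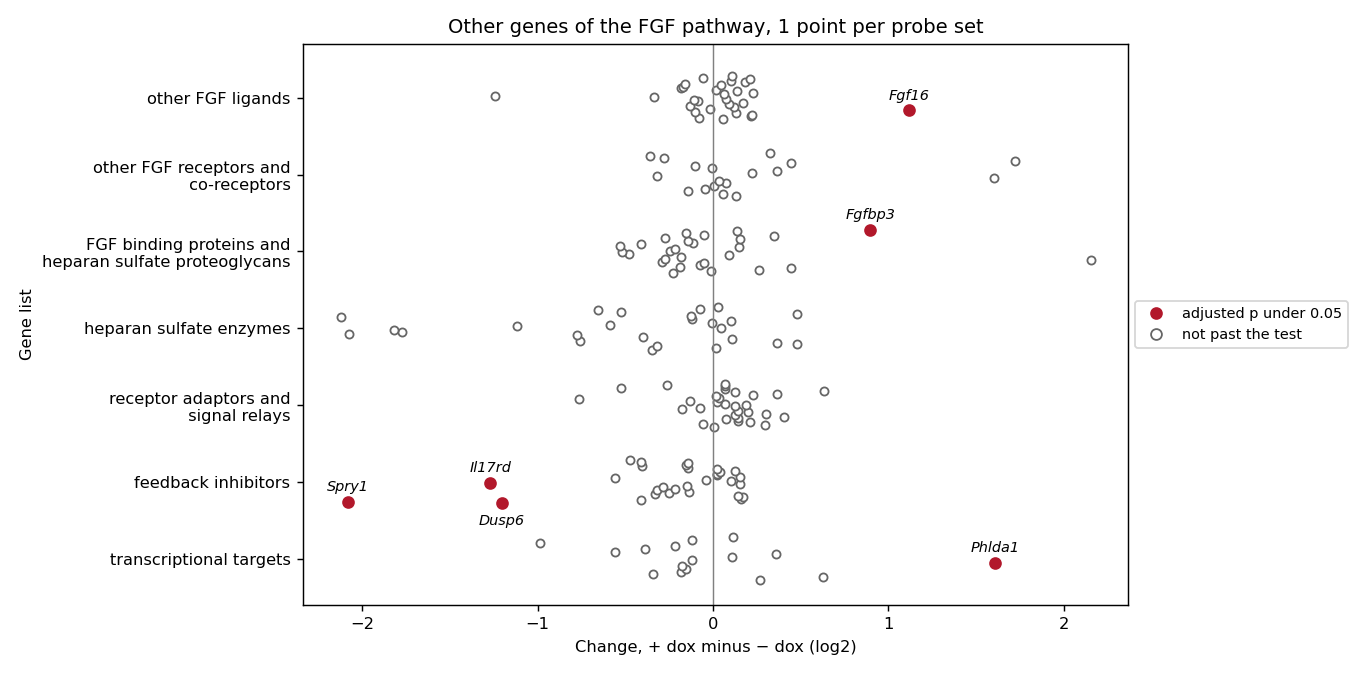
Change between + dox and − dox arrays in log2 units (horizontal axis) of 178 probe sets of other FGF pathway genes, 1 point each, by gene list (vertical axis). Filled red points passed an adjusted p of 0.05 and are named; the 3 that fell are all feedback inhibitors, and heparan sulfate enzymes reach −2.12 without a call.

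All 3 of the pathway genes that fell belong to the feedback inhibitors. Of this list 3 of 30 probe sets (12 genes) fell and 0 rose, while 0.884% of all probe sets were called lower and 1.64% higher. The paper states that BRAF mutations over-activate the MAPK pathway, and 4434 is Braf-mutant. These genes are thus not a reading of FGF receptors alone, and the source of their change was not tested. Spry1, a Sprouty protein that blunts receptor signalling to Ras, stood at 8.88, 8.85 and 9.22 in − dox and at 7.54, 6.68 and 6.48 in + dox arrays. All + dox values were lower, with + dox 1 the highest among them. The change of Spry1 was −2.08 (SE 0.28, limma adjusted p = 0.0228). Il17rd, the gene of Sef, read 5.88, 5.88 and 5.82 against 4.61, 4.30 and 4.86 (−1.27, SE 0.15, limma adjusted p = 0.0169), and its other, dimmer probe set had −0.14. Dusp6, a phosphatase of ERK, read 11.07, 10.89 and 10.59 against 9.89, 9.75 and 9.30 (−1.20, SE 0.19, limma adjusted p = 0.0354). The median change of the list was −0.15, and 10 of its 30 probe sets had all + dox values below all − dox values, against 11.4% of all probe sets. Besides the 3 called, these were repeat probe sets of Spred1 and Rasa1, none of them called. No probe set of Spry2, Spry3, Spry4, Spred2, Spred3, Dusp4 or Dusp5 was among them.

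Of the other ligands 1 of 30 probe sets rose and 0 fell. It was Fgf16, a relative of Fgf9, at 5.29, 5.77 and 5.42 in − dox and 6.26, 6.76 and 6.82 in + dox arrays (1.12, SE 0.20, limma adjusted p = 0.0434). Fgfbp3, which encodes a secreted FGF binding protein, was the 1 call among 28 probe sets of binding proteins and heparan sulfate proteoglycans. It rose from 6.51, 6.33 and 6.21 to 7.39, 7.16 and 7.19 (0.90, SE 0.12, limma adjusted p = 0.0224). Phlda1, an early response gene induced by growth factors, was the 1 call among 16 probe sets of transcriptional targets. It rose from 10.67, 10.21 and 10.14 to 11.80, 12.05 and 11.99 (1.61, SE 0.16, limma adjusted p = 0.0109).

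**Figure D5:**
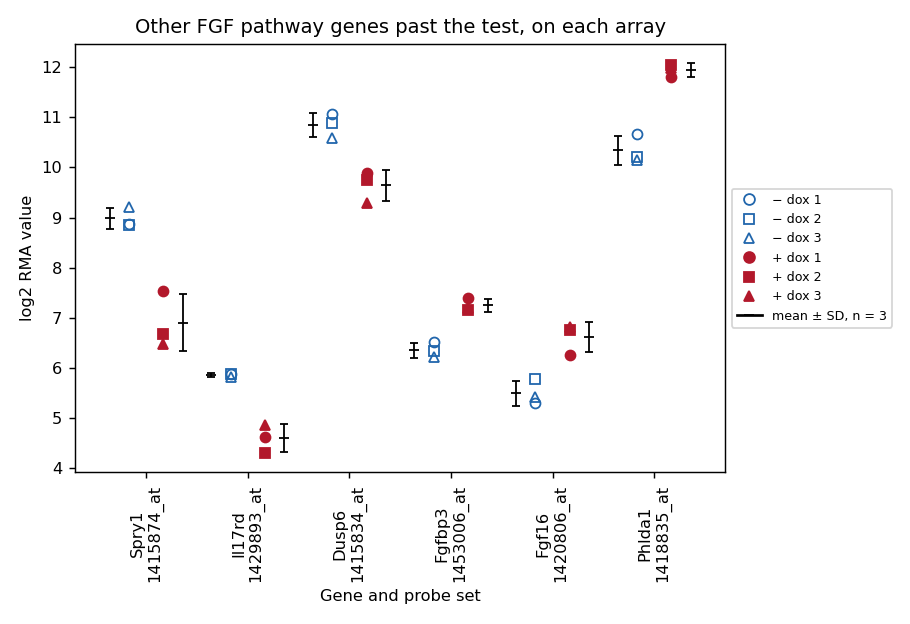
The 6 called probe sets of other FGF pathway genes (horizontal axis) with their log2 RMA values (vertical axis), 1 symbol per array, open blue for − dox and filled red for + dox, and black bars for mean ± SD (n = 3); Spry1, Il17rd and Dusp6 are lower and Fgfbp3, Fgf16 and Phlda1 higher on all 3 + dox arrays.

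The remaining lists had 0 called probe sets by limma, and their counts at an unadjusted p under 0.05 stand beside 18.5% of all probe sets. Among co-receptors and other receptors (18 probe sets, 3 with an unadjusted p under 0.05), the smallest p belonged to the adhesion protein gene Flrt3, with 7.06, 6.90 and 6.82 in − dox and 7.17, 9.35 and 9.07 in + dox arrays (1.60, limma adjusted p = 0.185). Among heparan sulfate enzymes (25 probe sets, 12 with an unadjusted p under 0.05), it was Sulf2, a sulfatase that trims heparan sulfate, with −0.59 on 1442408_at (limma adjusted p = 0.0643) and −2.12 and −2.07 on its brighter probe sets. In this list 11 of 25 probe sets had non-overlapping groups with + dox below, against 11.4% of all probe sets, and the median change was −0.32. Many of these were repeat probe sets of a gene, as for Sulf1, Sulf2, Hs2st1 and Glce. Among adaptors and relays (31 probe sets, 5 with an unadjusted p under 0.05), it was the ubiquitin ligase gene Cbl, with 0.63 on 1450457_at (limma adjusted p = 0.0775) and −0.13 and 0.07 on its other probe sets.

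Of the 6 pathway calls 0 held whichever array was left out. All 6 were lost without − dox 2 or − dox 3. Without + dox 2 or + dox 3 Il17rd alone remained past the test, and without − dox 1 Fgf16 and Dusp6 (limma adjusted p = 0.0501) were lost. The highest limma adjusted p of each gene was 0.108 for Spry1, 0.0902 for Il17rd, 0.130 for Dusp6, 0.168 for Fgf16, 0.104 for Fgfbp3 and 0.0655 for Phlda1. Without + dox 1 the pathway counts were 7 higher and 9 lower, and without both arrays numbered 1 they were 11 and 15. The share called over all probe sets rose as well, from 2.53% with all arrays to 5.22% and 11.4% in these fits.

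Markers were read beside these results. Of 13 melanocyte genes, the pigment cell genes Tyr and Mlana fell below the lower quartile of every array, while Sox10, a factor of the melanocyte lineage, had 6.23 ± 0.12 (− dox) and 6.34 ± 0.11 (+ dox). Of this list Gpnmb, a melanosomal glycoprotein gene, was called lower, on both of its probe sets (−2.62 and −1.15, limma adjusted p = 0.0261 and 0.0224). Both calls were lost without − dox 2, − dox 3, + dox 2 or + dox 3 (highest limma adjusted p 0.120 and 0.106). The other 12 melanocyte genes had no call, and the median change of the 26 probe sets was 0.02. Of 11 fibroblast genes 0 were called, with 7 of 24 probe sets at an unadjusted p under 0.05, against 18.5% of all probe sets. Of these 7, 6 were higher in + dox cells, most of them of Prrx1 and the rest of Dcn and a dim Pdgfrb probe set. Prrx1 was the brightest gene (9.57 ± 0.11 and 9.95 ± 0.29). Lum lay under the lower quartile on all arrays, and Col1a1 stood at 4.20 ± 0.10 and 4.10 ± 0.13. Other members of this list had changes in both directions, with 0.85 for Dcn (1449368_at), 1.03 for Prrx1 on 1432129_a_at and −1.35 for Col3a1 (1427883_a_at), with limma adjusted p values of 0.0700, 0.0700 and 0.128. The log2 of the summed melanocyte markers ran from 10.09 to 11.03 in − dox and from 8.88 to 9.25 in + dox arrays, a sum in which Gpnmb was the 1 called gene. That of the fibroblast markers ran from 10.81 to 11.36 in − dox and from 10.57 to 11.00 in + dox arrays.

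Of 8 keratinocyte genes 1 rose and 0 fell, and the median change of the 14 probe sets was −0.01. The gene was Krt14, a basal keratin named after its values were seen (3.67 and 2.46 on the called 2 of its 3 probe sets, limma adjusted p = 0.00279 and 0.0238), while Epcam had −0.10 and Cdh1 and Trp63 lay under the lower quartile on all arrays. The first of these calls held whichever array was left out, and the second was lost without − dox 2 or − dox 3 (limma adjusted p = 0.0894 and 0.111). The log2 of the summed keratinocyte markers ran from 7.98 to 8.19 in − dox and from 8.91 to 9.45 in + dox arrays. Krt14 was the 1 called gene in this sum, so the higher sum does not show that the list rose as a whole. Endothelial (6 genes) and immune markers (5 genes) had 0 calls by limma, with 1 and 0 probe sets at an unadjusted p under 0.05. The 1 was of Tek, at 3.87, 3.80 and 3.58 in − dox and 7.01, 4.58 and 4.49 in + dox arrays. Its change was 1.61 (limma adjusted p = 0.257), and + dox 1 stood far above the other arrays. Kdr stood at 5.86 ± 0.37 and 6.07 ± 0.35 and Cd68 at 5.62 ± 1.31 and 6.86 ± 0.40. For Cd68 the − dox arrays 1, 2 and 3 read 7.14, 4.91 and 4.82, with − dox 1 far above the others. Its + dox arrays read 6.40, 7.06 and 7.12. The log2 sums ran from 7.0 to 7.32 (− dox) and 7.41 to 8.03 (+ dox) for endothelial markers, and from 7.24 to 8.01 and 7.73 to 8.26 for immune markers. The part of any of these in the values of Fgf7 and Fgfr1 was not tested.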

How the data were processed

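Total RNA of 6 samples was hybridised to Affymetrix mouse arrays. The deposited values are log2 values that the authors made in Chipster with RMA, a method that corrects background, normalises by quantiles and summarises probes; the Chipster version and the chip definition are not given in the sources used here, and the log2 scale was read from the values and the use of RMA. Precision is limited by the number of arrays, and scanner files were not used here.

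Samples were grouped by their titles. Of 45101 probe sets 64 array controls were left out. Genes were named by the 2016 platform annotation, and all 10 member genes were found in the RefSeq table of GRCm38.p6. Probe sets with several symbols were not counted for any gene, and 0 of them involved a member. For each probe set, a limma 3.58.1 model (R 4.3.3) with group as its term was fitted by lmFit and eBayes and tested two-sided, and p-values were adjusted over all 45037 probe sets by Benjamini-Hochberg. A probe set was called at an adjusted p under 0.05. A change is the + dox mean minus the − dox mean, with the SE and 95% intervals of the fit. Differences between probe sets of a gene used exact permutation tests over arrays. The fit was tested on simulated data.

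The text names all members, and up to 4 called genes per pathway list or else the gene with the smallest p. It also names called melanocyte markers, the brightest marker of other lists, and the 5 genes with profiles most like Fgf7 and Fgfr1. Krt14, Sox10, Lum, Col1a1, Col3a1, Dcn, Cdh1, Trp63, Tyr, Mlana, Mitf, Pmel, Pdgfrb and Tek were added after their values were seen. So were the genes named for repeat or overlapping probe sets in the pathway lists. Members, lists, tests and alternatives were chosen with earlier results of these data known. Alternatives were a filter at the 40th percentile of mean level, 1 value per gene, trend and robust options of eBayes, renormalised or centred columns, a block for the replicate number, and arrays left out.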

Additional observations from a re-analysis of the deposited data

How the results depend on the processing

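Neither a filter on dim probe sets, other eBayes settings, quantile normalisation nor median centring changed the 5 member calls. With 1 value per gene, by mean or by brightest probe set, 2 members fell in place of 5 probe sets, since Fgf7 and Fgfr1 then count once each. With 1 array left out, 2 to 5 member probe sets fell and 0 rose, Fgf7 ran from −3.32 to −3.20 and Fgfr1 from −1.39 to −1.13, and the pathway counts from 0 to 7 (higher) and 0 to 9 (lower). Without both arrays numbered 1, chosen after seeing the data, they were 11 and 15. Signs turned only for changes within the spread. With 1 array left out, Fgf10 ran from −0.09 to 0.012, Fgfr2 (1443211_at) from −0.24 to 0.07 and Fgfr3 (1421841_at) from −0.058 to 0.012, and Fgfr3 had 0.0011 after quantile normalisation. Calls over all probe sets (1138) ran, with 1 array left out, from 111 without − dox 3 to 2351 without + dox 1, and were 5142 without both arrays numbered 1.

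Same-numbered arrays were not taken as pairs, since their deviations correlated at −0.05, −0.04 and 0.21. With the replicate number as a block, 4 member probe sets fell and 0 rose, with Fgf7 at −3.26 (limma adjusted p = 0.00338) and Fgfr1 at −1.27 (0.0267), and the pathway counts were 2 and 2. The block ended the calls of Fgfr1 on 1436551_at (limma adjusted p = 0.0709), Spry1 (0.0574), Il17rd (0.0509), Fgf16 (0.0509) and Krt14 on 1460347_at (0.0558), and calls over all probe sets went from 1138 to 466. Near the low end of the scale these arrays cannot tell a low level from none.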

Other observations

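In 4 pathway genes, Sulf1, Sulf2, Fgfbp1 and Flrt3, + dox 2 and 3 lay farther from the − dox arrays than + dox 1 did. They were picked after their values were seen, and over all arrays limma called 0 of the 4 probe sets given here, though all 4 had an unadjusted p under 0.05. Sulf2, a heparan sulfate sulfatase, had 10.84, 8.99 and 8.93 on + dox arrays 1, 2 and 3, compared with 11.69, 11.71 and 11.73 on − dox arrays (1447602_x_at). Sulf1, the related sulfatase, read 8.62, 8.63 and 9.19 against 7.96, 6.68 and 6.35 on 1438200_at. On both genes + dox 1 lay between the − dox arrays and the other + dox arrays. Without + dox 1 both passed (−2.75, limma adjusted p = 0.000418, and −2.30, limma adjusted p = 0.00709), while over all arrays neither did (limma adjusted p = 0.0841 and 0.0813). For all 4 genes this fit leaves out the very array they were picked for, so passing in it is no support. It called 5.22% of all probe sets, against 2.53% with all arrays.

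Fgfbp1, a secreted carrier of FGFs best known from epithelia, went the other way, with 4.83, 4.67 and 4.73 against 5.83, 7.15 and 7.71 (2.15, limma adjusted p = 0.0642). It had 2.69 without + dox 1 (limma adjusted p = 0.00279). Flrt3 on 1453102_at read 6.20, 6.06 and 6.02 against 6.18, 8.70 and 8.56, so that + dox 1 stood among the − dox arrays. Its change was 1.72 over all arrays (limma adjusted p = 0.224) and 2.54 without + dox 1 (limma adjusted p = 0.000858). Array + dox 1 was thus the + dox array nearest to the − dox arrays in these 4 genes. The same held on the first principal component of all probe sets, so this is no trait of these genes alone. There + dox 1 had 15.7 against 58.6 and 72.7 for the other + dox arrays, and the − dox arrays had −59.1, −37.5 and −50.4. The cause was not tested.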
